A study of Mus musculus with 24 samples.

Results

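Acyl-CoA thioesterases were measured in the liver of mice fed 4 diets, as the 8 genes Acot1, Acot2, Acot3, Acot4, Acot7, Acot8, Acot12 and Acot13, together with the related acyltransferase gene Acnat2. The members were taken by gene symbol from the array annotation. The family was chosen from earlier results of these data in which Acot1 was among the largest increases of the human diets over the pellet diet, so that contrast is given here as a description with no test. The 9 genes were 9 of 13384 genes that passed a filter on low values. They were read by 13 probe sets with 1 symbol, of which 11 passed the filter, and each gene was represented by its brightest probe set.

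The 24 mice were females of the strain labelled NMR-1, 8 weeks old at the start, and were kept for 2 weeks on 1 of 4 diets, with 6 mice and 2 batches of 3 mice per diet. Mice of the fast food group ate nothing else, and those of the cafeteria group were given cooked canteen meals. The chimpanzee diet combined plant foods with yogurt, and pellet was the standard feed of all mice until then. The cafeteria and fast food diets together are called the human diets. The study asked how human and chimpanzee diets differ in their effect on expression, and the pellet mice were the only group that did not change feed.

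The thioesterases split fatty acyl-CoA, the activated form in which fatty acids are oxidised or built into lipids, into a free fatty acid and coenzyme A. Mice carry the type I enzymes as a cluster of closely related genes whose products sit in different compartments: Acot1 in the cytosol, Acot2 in mitochondria, and Acot3 and Acot4 in peroxisomes. The type II enzymes are unrelated in sequence. In rodent liver the type I genes are known as targets of PPARalpha, a nuclear receptor for fatty acids that acts at direct repeats of a short core sequence.

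In the RefSeq gene order of chromosome 12 (GRCm38.p6) the protein-coding genes Acot2, Acot1, Acot4, Acot3, Acot5 and Acot6 follow each other with no other protein-coding gene between them. The 250 bases before the annotated start are shown for Acot1 and Acot2, neighbours with the largest and the smallest difference between chimpanzee diet and pellet among the cluster's 4 members, and for Acot4, the cluster member with a match to the core sequence. Sequences are RefSeq reference sequence of build GRCm38.p6, 5′ to 3′, and capitals mark a match to AGGTCA on either strand.

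Acot1, GRCm38.p6 chr12:84009252-84009501, plus strand: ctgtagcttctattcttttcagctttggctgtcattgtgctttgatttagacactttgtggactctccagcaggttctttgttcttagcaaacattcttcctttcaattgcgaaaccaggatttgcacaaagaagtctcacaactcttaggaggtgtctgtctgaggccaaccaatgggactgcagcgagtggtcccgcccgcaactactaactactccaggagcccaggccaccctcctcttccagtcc
Acot2, GRCm38.p6 chr12:83987611-83987860, plus strand: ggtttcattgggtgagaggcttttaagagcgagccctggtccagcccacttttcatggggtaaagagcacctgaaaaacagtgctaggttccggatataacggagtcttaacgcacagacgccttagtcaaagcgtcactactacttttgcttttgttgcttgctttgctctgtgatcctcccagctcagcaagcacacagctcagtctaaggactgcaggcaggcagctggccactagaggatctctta
Acot4, GRCm38.p6 chr12:84038129-84038378, plus strand: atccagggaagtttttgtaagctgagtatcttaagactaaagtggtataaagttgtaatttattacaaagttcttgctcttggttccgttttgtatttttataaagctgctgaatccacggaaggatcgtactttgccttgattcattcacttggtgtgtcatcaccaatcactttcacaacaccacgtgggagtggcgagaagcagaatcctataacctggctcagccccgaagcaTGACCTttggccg

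Of the 9 members, 8 had a window of this length in the table. The core AGGTCA, on either strand, was found in Acot4, 13 to 8 bases before the start, and in Acot12, against 14.0% of all 32851 windows. The direct repeat AGGTCANAGGTCA and its looser form AGGNCANAGGNCA, both of which hold the core or a variant of it, were in 0 of the 8 members and in 0.0335% and 0.338% of all windows. The E-box CACGTG and the TATA element TATAAA were also looked for, and of the 8 members were found only in Acot4, against 6.02% and 12.4% of windows. These are descriptions of the letters in a short window.

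All values are log2 expression. The liver label was checked against defining hepatocyte markers, of which 8 of 8 passed the filter with means between 9.63 and 12.76. Of 3 adipocyte markers on the array 1 passed the filter, while Adipoq and Lep lay below it. Of 2 pancreas markers on the array 2 passed, with means of 3.15 and 8.29. The filter was also passed by 6 of 6 endothelial, 6 of 6 stellate, 3 of 4 bile duct and 1 of 2 red cell markers. Of the 7 Kupffer cell and macrophage markers, 4 were called between chimpanzee and pellet diets, where 10.4% of all genes were called. Their mean level was 5.85 on the chimpanzee diet against 6.36 on pellet. In the same comparison 1 of 8 hepatocyte, 1 of 6 endothelial and 0 of 6 stellate markers were called. The 90th percentile of the arrays was 6.51 ± 0.07 (SD, n = 12) in batch 1 and 6.05 ± 0.20 in batch 2. The 3′ minus 5′ difference of the beta-actin control, a sign of RNA integrity or labelling, was 1.08 ± 0.15 on the chimpanzee diet, 0.75 ± 0.14 on pellet, 0.91 ± 0.05 on cafeteria food and 0.80 ± 0.13 on fast food (SD, n = 6). In bulk tissue fewer cells of a type and less RNA per cell cannot be told apart. Of all genes called between chimpanzee and pellet diets, 28.3% were higher on the chimpanzee diet, against 45.4% after cyclic loess between arrays and 47.0% with the 90th percentile as a covariate. For human against chimpanzee diets the share higher was 77.0%, against 57.6% and 58.0%.

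Acot1 had the widest range of diet means of the 9 genes, 2.64. On pellet its lowest, median and highest values were 3.12, 3.65 and 4.48, on the chimpanzee diet 4.67, 5.83 and 6.08, on cafeteria food 4.14, 5.36 and 5.89, and on fast food 4.68, 6.76 and 7.00. Every chimpanzee and fast food mouse lay above all 6 pellet mice, while the lowest cafeteria mouse overlapped with the highest pellet mouse. Over all genes such an order was seen in 0.837% for the chimpanzee diet and 0.463% for fast food. The diet means ran in the order pellet (3.70 ± 0.53, SD), cafeteria (5.18 ± 0.59), chimpanzee (5.67 ± 0.54) and fast food (6.34 ± 0.92). Neighbours among the upper 3 overlapped: cafeteria was -0.49 ± 0.30 (SE) from chimpanzee, and fast food 0.67 ± 0.30 above chimpanzee, against a spread of 0.62 within a diet and batch.

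**Figure D1:**
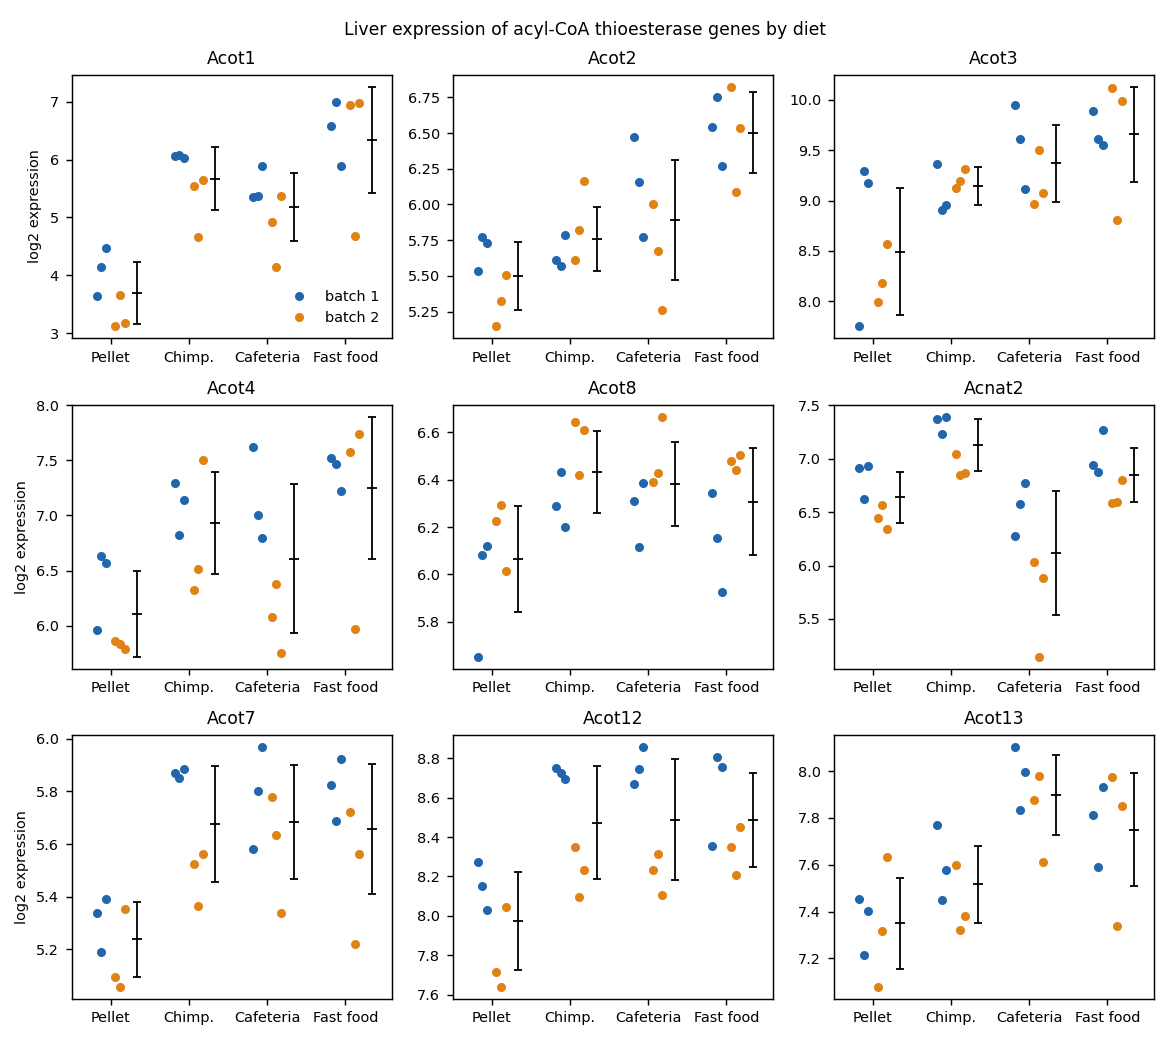
Log2 expression (y axes, each with its own scale) of the 9 genes in each mouse, by diet (x axis). Points are mice, blue for batch 1 and orange for batch 2, and bars give the mean and SD of 6 mice. Acot1 runs from a mean of 3.70 on pellet to 6.34 on fast food, and Acnat2 is lowest on cafeteria food at 6.12.

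Between the chimpanzee diet and pellet, 6 of the 9 members rose and 0 fell, where 10.4% of all genes were called and 2.93% were called higher. These were Acot1, Acot4, Acot7, Acot8, Acot12 and Acnat2 (limma, adjusted over all genes). The differences of all 9 were above 0, with a median of 0.49 against -0.00 over all genes. This comparison shares the 6 pellet mice with the contrast from which the family was chosen, so it is not independent of that choice. In batch 1 alone 4 of the 9 passed and in batch 2 alone 0, with 3 mice against 3, where 7.92% and 0.187% of all genes were called. With the beta-actin difference as a covariate 2 passed, Acot1 and Acot12, where 1.58% of all genes were called. The part of the beta-actin difference in the result was not tested further.

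Acot1, the cytosolic type I enzyme, rose 3.91-fold on the chimpanzee diet, by 1.97 ± 0.30 (SE, limma adjusted p = 1.54e-04). The difference was 1.97 in each batch. Groups of mice that did not overlap, all chimpanzee above all pellet, were seen in 0.837% of genes and in 1 of the 9 members, Acot1. With the beta-actin difference as a covariate the value was 2.64 (limma adjusted p = 9.42e-04), and only batch 2 alone lost the call (limma adjusted p = 0.215).

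Acot4, the peroxisomal enzyme for succinyl-CoA and other dicarboxylic acyl-CoAs, had pellet values of 5.79, 5.91 and 6.64 (lowest, median, highest) and chimpanzee values of 6.33, 6.98 and 7.51. The groups overlapped at their edge, and the rise was 0.82 ± 0.25 (limma adjusted p = 0.0345). This call was the weakest of the 6 and was lost without any one of 7 mice, where the value ran from 0.64 to 0.91 over all mice left out. A dimmer probe set of Acot4 gave 0.66 ± 0.22.

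Acot3, a peroxisomal long-chain acyl-CoA thioesterase, was read by a probe set whose type can also bind transcripts of related genes, so its value cannot be assigned to Acot3 alone. Pellet mice lay at 7.75, 8.38 and 9.29 and chimpanzee mice at 8.91, 9.16 and 9.37. The pellet mice were spread more widely than the chimpanzee mice, and the difference of 0.65 ± 0.23 did not pass (limma adjusted p = 0.0823). In batch 1 it was 0.34 and in batch 2 it was 0.97. It passed after cyclic loess (0.73, limma adjusted p = 0.0306), without pellet replicate 2 of batch 1 (0.80, limma adjusted p = 0.0280) and without pellet replicate 3 of batch 1 (0.77, limma adjusted p = 0.0474).

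Acot2, the mitochondrial enzyme next to Acot1, lay at 5.15, 5.52 and 5.77 on pellet and at 5.57, 5.70 and 6.17 on the chimpanzee diet. The groups overlapped, and the difference of 0.26 ± 0.16 did not pass (limma adjusted p = 0.371), with a 95% interval from -0.07 to 0.59. It was -0.02 in batch 1 and 0.54 in batch 2.

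The type II enzymes and Acnat2 moved by less than Acot1 but with smaller errors. Acot12, a cytosolic acetyl-CoA hydrolase of liver, had medians of 8.04 on pellet and 8.52 on the chimpanzee diet and rose by 0.50 ± 0.09 (limma adjusted p = 5.44e-04), while its dimmer probe set gave 0.26 ± 0.23, with a 95% interval from -0.21 to 0.74. Acot7, a cytosolic enzyme best known from brain, had medians of 5.26 and 5.71 and rose by 0.44 ± 0.09 (limma adjusted p = 0.00340). Acot8, a peroxisomal enzyme of broad specificity, had medians of 6.10 and 6.43 and rose by 0.37 ± 0.09 (limma adjusted p = 0.00854). In each of these 3 genes the highest pellet mouse lay above the lowest chimpanzee mouse. Within batches 1 and 2 the differences were 0.57 and 0.42 for Acot12, 0.56 and 0.32 for Acot7, and 0.36 and 0.38 for Acot8.

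Acot13, a mitochondria-associated thioesterase that binds the phosphatidylcholine transfer protein, had a median of 7.36 on pellet and 7.51 on the chimpanzee diet. Its difference of 0.17 ± 0.11 did not pass (limma adjusted p = 0.413), except after cyclic loess (limma adjusted p = 0.0203). Acnat2, an acyltransferase relative of the enzyme that conjugates bile acids and not a thioesterase, rose by 0.49 ± 0.13 (limma adjusted p = 0.0165), by 0.51 in batch 1 and 0.47 in batch 2.

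**Figure D2:**
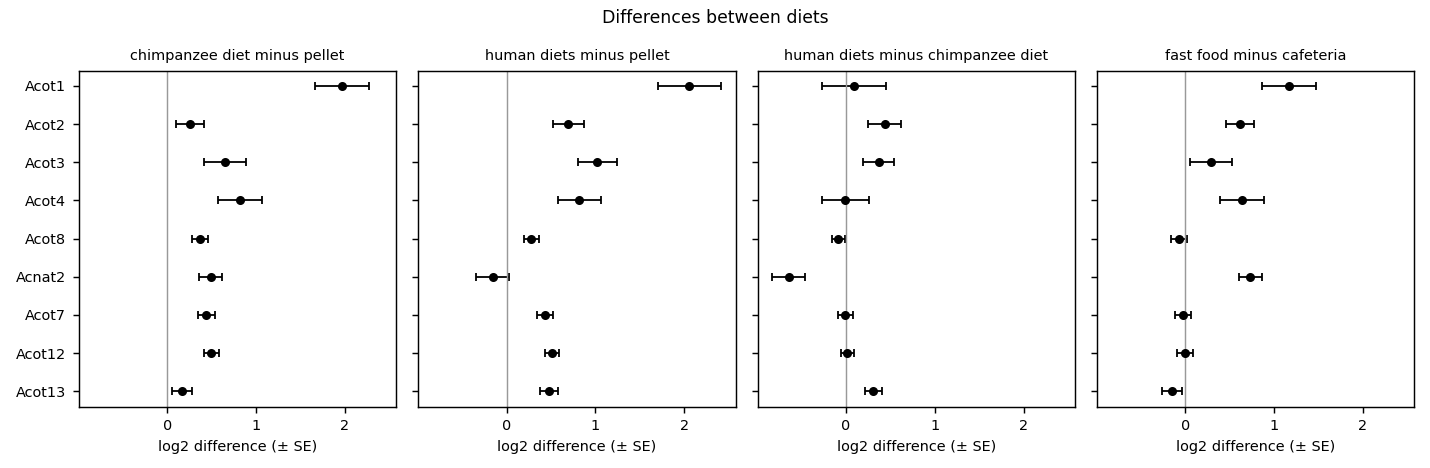
Log2 difference of each gene (x axis, point and SE) in the 4 comparisons of diets. Acot1 stands at 1.97 for chimpanzee minus pellet and at 2.06 for human minus pellet, and Acnat2 is the gene farthest below 0 for human minus chimpanzee, at -0.65. The human minus pellet panel shows the contrast from which the family was chosen.

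The Acot1 pattern was read by more than 1 probe set. A probe set that the annotation gives to both Acot1 and Acot2 had means of 4.60 ± 0.45 on pellet, 6.70 ± 0.50 on the chimpanzee diet, 6.15 ± 0.60 on cafeteria food and 7.38 ± 0.93 on fast food (SD, n = 6). On this shared probe set all mice of the chimpanzee, cafeteria and fast food diets lay above all pellet mice. Over all genes such an order against pellet was seen in 0.837%, 0.583% and 0.463% for these diets, each taken alone. Its deviations from the diet and batch means followed those of Acot1 (r = 0.97 over 24 mice) more than those of the brighter Acot2 probe set (r = 0.32), as a description over arrays that share batches and signal range. The dimmer Acot2 probe set passed the filter level in 4 of 24 arrays, all on fast food, with means from 2.87 on pellet to 3.30 on fast food.

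**Figure D3:**
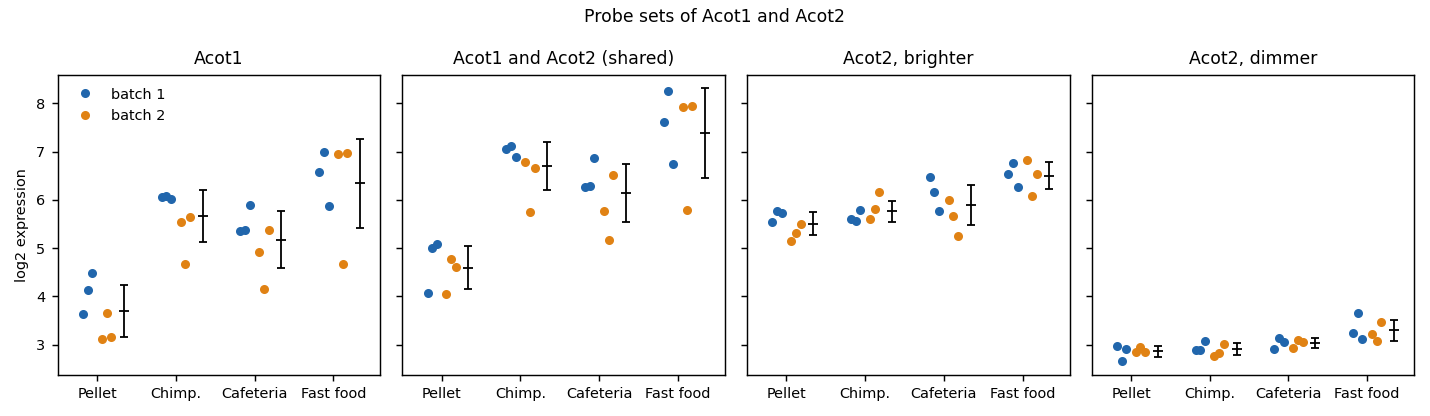
Log2 expression (y axis, shared) of the 4 probe sets annotated to Acot1 or Acot2 in each mouse, by diet (x axis), with the mean and SD of 6 mice. The shared probe set runs in parallel to Acot1, from 4.60 on pellet to 7.38 on fast food, and the brighter Acot2 set from 5.50 to 6.50.

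On the human diets the mean of Acot1 was 2.06 ± 0.36 (SE, 4.17-fold) above pellet, by 1.92 in batch 1 and 2.19 in batch 2. This is the contrast that chose the family, and its values are a description. Acot3 differed by 1.02 ± 0.22, Acot4 by 0.82 ± 0.24, Acot2 by 0.70 ± 0.18, Acot12 by 0.51 ± 0.08, Acot13 by 0.47 ± 0.10, Acot7 by 0.43 ± 0.09 and Acot8 by 0.28 ± 0.08. The exception in sign was Acnat2, at -0.16 ± 0.19. By the threshold used elsewhere 6 of the 9 were higher and 0 lower, where 4.98% of all genes were called and 2.15% called higher, and nothing is read from that count. All 9 kept their sign in both batches.

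The values of each human diet against pellet, which belong to the choosing contrast, are also a description. On fast food the mean of Acot1 was 2.64 ± 0.30 above pellet and that of Acot2 1.00 ± 0.16 above it. For both genes all fast food mice lay above all pellet mice, an order seen in 0.463% of all genes. On cafeteria food the same differences were 1.48 ± 0.30 and 0.39 ± 0.16. Acnat2 was -0.52 ± 0.13 from pellet on cafeteria food and 0.21 ± 0.13 on fast food. The direct comparison of the 2 human diets called 0 of the 9 members.

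Human and chimpanzee diets were then compared, in the 18 mice concerned. Of the 9 members 0 were called, where 1.49% of all genes were. An unadjusted p under 0.05 was seen in 4 members and in 14.3% of all genes. The median difference was 0.01, against 0.00 over all genes, with 5 members above 0 and 4 below. With array weights 4 members and 9.50% of all genes passed, and with the methods' procedure 2 members and 6.43% of all genes. The 12 human diet mice are also in the contrast that chose the family.

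Acot1, with a median of 5.83 on the chimpanzee diet and 5.63 on the human diets, differed by 0.09 ± 0.36 (limma adjusted p = 0.949). This SE also holds the difference between the human diets, which were fitted as 1 group. In the fit of all 24 mice, with the 4 diets apart, the SE was 0.26. The 95% interval ran from -0.66 to 0.85. With the beta-actin difference as a covariate the value was -0.93 (limma adjusted p = 0.607). For Acot4 the interval ran from -0.56 to 0.55, for Acot7 from -0.18 to 0.17, for Acot8 from -0.24 to 0.06 and for Acot12 from -0.14 to 0.17.

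The members farthest apart between human and chimpanzee diets were Acnat2 and Acot2. Acnat2 lay at 6.85, 7.14 and 7.39 on the chimpanzee diet (lowest, median, highest) and at 5.15, 6.59 and 7.27 on the human diets. The human diet mice reached lower, and the difference of -0.65 ± 0.19 missed the threshold (limma adjusted p = 0.0875). It passed under 5 alternatives: cyclic loess, the 90th percentile as a covariate, array weights, the methods' procedure and the fit of all 24 mice. Acot2 differed by 0.44 ± 0.19 (limma adjusted p = 0.284), Acot3 by 0.37 ± 0.17 (limma adjusted p = 0.342) and Acot13 by 0.31 ± 0.10 (limma adjusted p = 0.119). For Acot2 the pooled value joins 2 unlike diets. Fast food lay 0.74 ± 0.16 above the chimpanzee diet, by 0.87 in batch 1 and 0.62 in batch 2. Cafeteria food lay 0.13 ± 0.16 above it, by 0.48 in batch 1 and -0.22 in batch 2. Each human diet alone against the chimpanzee diet was not tested.

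The low Acnat2 values came from the cafeteria mice. Their lowest, median and highest values were 5.15, 6.16 and 6.77, against 6.59, 6.84 and 7.27 on fast food and 6.35, 6.60 and 6.93 on pellet. All 6 cafeteria mice lay below all 6 chimpanzee mice, an order seen in 0.135% of genes, at a difference of -1.01 ± 0.13. In batch 1 that difference was -0.79 and in batch 2 it was -1.23, and the lowest mouse of all was in batch 2.

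Fast food and cafeteria food were compared in the fit of all 24 mice. In this comparison 0 of the 9 members and 0.00747% of all genes, which is 1 gene, passed with limma. An unadjusted p under 0.05 was seen in 4 members and in 5.11% of all genes, which is 684 genes. This contrast is orthogonal to that of the pooled human diets against pellet, which chose the family. Its 12 mice are nevertheless all in that contrast, and the difference between the human diets is part of the SE there. Acnat2 was 0.73 ± 0.13 higher on fast food, 1.66-fold (limma adjusted p = 0.0680), by 0.49 in batch 1 and 0.97 in batch 2, with overlapping groups. Acot1 was 1.16 ± 0.30 higher (limma adjusted p = 0.408), Acot4 0.64 ± 0.25 (limma adjusted p = 0.888) and Acot2 0.61 ± 0.16 (limma adjusted p = 0.408). The type II members lay near 0, from -0.15 ± 0.11 for Acot13 to -0.00 ± 0.09 for Acot12.

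A single fast food mouse, replicate 2 of batch 2, weighed on this comparison. Its Acot1 value was 4.68 while the other 5 fast food mice lay at 5.88 or above, and it had the third lowest 90th percentile of the 24 arrays, 5.86. Without it Acot1 differed by 1.45 ± 0.26 (limma adjusted p = 0.0312). The Acnat2 difference did not move and was again 0.73 (± 0.14), but passed without this mouse (limma adjusted p = 0.0433). In that fit 12 of all genes passed, against 1 with all mice. The Acnat2 difference also passed without cafeteria replicate 3 of batch 1 (limma adjusted p = 0.0245) and without cafeteria replicate 2 of batch 2 (limma adjusted p = 0.0393).

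**Figure D4:**
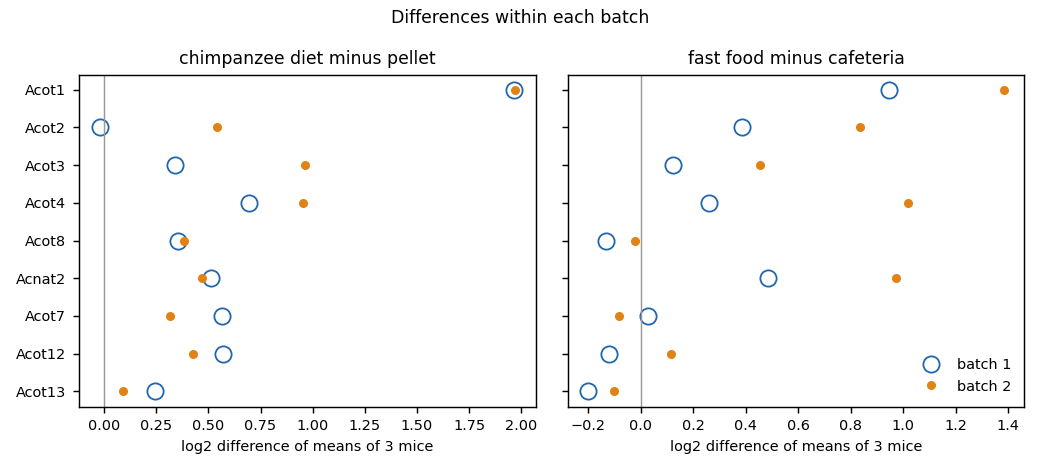
Log2 difference of batch means of 3 mice (x axis) for each gene, open blue for batch 1 and filled orange for batch 2. Acot1 lies at 1.97 in both batches for chimpanzee minus pellet, while Acot2 lies at -0.02 and 0.54, and for fast food minus cafeteria Acot4 lies at 0.26 and 1.02.

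The members did not vary as 1 block among mice of the same diet and batch. The residuals of Acot3 and Acot4 (r = 0.77 over 24 mice), Acot2 and Acot4 (r = 0.74) and Acot7 and Acot13 (r = 0.70) went together, while those of Acot8 and Acot12 ran against each other (r = -0.47). These correlations describe arrays that also differ in signal range. The Acot3 probe set can also bind transcripts of related genes, and whether this enters its r with Acot4 was not tested. The residuals of Acot7 followed the 90th percentile of the array with r = 0.82, those of Acot2 with r = 0.58 and those of Acot1 with r = 0.18. For the opposed genes Acot8 and Acot12 this r was -0.40 and 0.35. It was 0.52 for Acot13, 0.50 for Acot4, 0.12 for Acot3 and 0.17 for Acnat2.

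The genes whose values over the 24 mice were most like Acot1, after the batch means were subtracted, were Pex11a (r = 0.92), Retsat (0.91), Aldh3a2 (0.90), Ces1d (0.89), Pctp (0.89) and Eci2 (0.88). Pex11a codes for a protein of peroxisome division, Retsat for retinol saturase and Aldh3a2 for fatty aldehyde dehydrogenase. Ces1d codes for a carboxylesterase of liver, Pctp for the phosphatidylcholine transfer protein that binds Acot13, and Eci2 for an isomerase of unsaturated fatty acid oxidation. The 24 mice share diets, so the likeness includes the differences between diets. Within diet and batch the r fell to between 0.52 for Eci2 and 0.77 for Pex11a. Pex11a had means of 6.58 ± 0.20 on pellet, 7.93 ± 0.19 on the chimpanzee diet, 7.69 ± 0.34 on cafeteria food and 7.98 ± 0.27 on fast food. Of the members, Acot4 was nearest to Acot1 (0.80) and Acnat2 farthest (0.32).

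Other genes of acyl-CoA turnover were also compared between the chimpanzee diet and pellet, where 10.4% of all genes were called, 2.93% of all genes higher. Of 9 measured further thioesterases and acyltransferases 1 rose and 1 fell. Them4, a mitochondrial acyl-CoA thioesterase, rose by 0.61 ± 0.20 (limma adjusted p = 0.0471), and Ppt1, a lysosomal palmitoyl-protein thioesterase, differed by -0.57 ± 0.09 (limma adjusted p = 2.39e-04). The median of the list was -0.02. Them4 lay near the filter level of 3.15, at 3.42 ± 0.40 on pellet and 4.04 ± 0.72 on the chimpanzee diet (SD). Acot6, Acot9, Acot11, Them5 and Them6 were also near that level, with pellet means from 2.97 to 3.41. Between human and chimpanzee diets, where 1.49% of all genes were called, Ppt1 was also the only gene of this list called. It was 0.35 ± 0.07 higher on the human diets (limma adjusted p = 0.0233).

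The acyl-CoA synthetases, which work in the opposite direction and activate fatty acids, had 2 genes higher and 2 lower of 17 measured. Acsm3, a medium-chain synthetase, rose by 0.65 ± 0.12 (limma adjusted p = 7.83e-04), as did Slc27a2, a very long-chain synthetase, by 0.56 ± 0.09 (limma adjusted p = 3.62e-04). Acss2, the cytosolic acetyl-CoA synthetase, differed by -2.04 ± 0.27 (limma adjusted p = 3.05e-05) and Acsl5, a long-chain synthetase, by -0.83 ± 0.14 (limma adjusted p = 3.72e-04). Between human and chimpanzee diets 0 of the 17 synthetases were called, where 1.49% of all genes were. The median of human minus chimpanzee was 0.05.

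Of 16 genes of coenzyme A synthesis and breakdown, 1 rose and 2 fell on the chimpanzee diet against pellet. Vnn1, a pantetheinase that returns pantothenate from coenzyme A breakdown, was 2.76 ± 0.56 higher (limma adjusted p = 0.00197). Nudt7, a peroxisomal coenzyme A hydrolase, differed by -1.17 ± 0.20 (limma adjusted p = 3.34e-04), and Slc25a17, a peroxisomal carrier, by -0.51 ± 0.12 (limma adjusted p = 0.00703). Between human and chimpanzee diets 0 of these 16 were called, where 1.49% of all genes were.

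Peroxisomal beta-oxidation had 2 genes higher and 2 lower of 16 measured. Eci2 was 0.99 ± 0.10 higher (limma adjusted p = 1.02e-06) and the thiolase Acaa1b 0.60 ± 0.10 (limma adjusted p = 3.34e-04), while Acox2, an oxidase of branched-chain acyl-CoAs, differed by -0.55 ± 0.12 (limma adjusted p = 0.00271) and Crot, carnitine octanoyltransferase, by -0.51 ± 0.16 (limma adjusted p = 0.0415). Between human and chimpanzee diets, where 1.49% of all genes were called, Pecr was the 1 of the 16 called. This peroxisomal trans-2-enoyl-CoA reductase was 0.35 ± 0.09 higher on the human diets (limma adjusted p = 0.0487). Of 6 acyl-CoA binding proteins 1 was called between chimpanzee and pellet diets, Dbi, the acyl-CoA binding protein itself, at -0.65 ± 0.13 (limma adjusted p = 0.00245), and 0 between human and chimpanzee diets.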

How the data were processed

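Liver RNA of 24 mice was hybridised to Affymetrix mouse arrays, 1 per mouse. The authors deposited log2 expression values made with the robust multichip average of the affy package, which corrects background, normalizes by quantiles and summarizes probe sets. Gene symbols came from the platform annotation (34945 of 45101 probe sets with 1 symbol), and the build behind it is not given in the sources used here. Groups and batches came from the sample titles.

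Probe sets were kept where 6 or more of the 24 arrays exceeded the overall median of 3.15, and the brightest stood for a gene. Differences were fitted with limma 3.58.1 in R 4.3.3 (lmFit, eBayes) with batch as a covariate. P-values were two-sided and Benjamini-Hochberg adjusted over 13384 genes, with a threshold of 0.05. The pooled human diets were fitted as 1 group against 1 other diet in 18 mice, and pairs of diets in all 24. In the pooled fits the difference between cafeteria and fast food mice is part of the SE. The fits were tested on simulated data. The methods' procedure took each gene's lowest p from an unmoderated linear model, leaving out probe sets with an interaction of diet and batch, at an unadjusted p of 0.01. The members and lists were chosen with earlier results of these data known. All members were named, with the 6 genes most correlated with Acot1 and called genes of each list. Labels do not tie mice to litters. Other filters, scalings, covariates, weights, single batches, a replicate block and the omission of each mouse were alternatives. Promoter windows were read with Python 3.11.15.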

Additional observations from a re-analysis of the deposited data

Results flagged for a closer look

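In 60 groups of 6 mice, 15 probe sets by 4 diets, the lowest or highest mouse stood apart from the other 5 in 4 groups by a gap test (Dixon's ratio at 95%), and chance flags about 1 in 20 groups. Fast food replicate 2 of batch 2 was the lowest mouse in 3 of them. It lay at 5.98 for the brighter Acot4 probe set, where the next mouse was at 7.22, at 5.28 for the dimmer one (next 6.39), and at 4.65 for the second Acot12 probe set (next 5.75). Chimpanzee replicate 2 of batch 2 was lowest, at 5.74 with the next mouse at 6.65, for the probe set shared by Acot1 and Acot2. Both arrays were among the 4 of lowest 90th percentile.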

How the results depend on the processing

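Between the chimpanzee diet and pellet, 6 members were called. The count was 2 with batch left out of the fit, 2 with the beta-actin covariate, 0 in batch 2 alone, 8 after cyclic loess and 5 to 7 with each mouse left out. The share of all genes called moved from 10.4% to 3.53%, 1.58%, 0.187% and 14.8% in the first 4 of these. It ran from 7.52% to 12.7% with each mouse left out. For human against chimpanzee diets the count of 0 became 1 with cyclic loess, 1 with the 90th percentile as a covariate, 1 in the fit of all 24 mice, 2 with the methods' procedure, 4 with array weights, and 0 to 1 with each mouse left out. For fast food against cafeteria food it became 1 with the 90th percentile as a covariate, 1 without the 4 arrays of lowest 90th percentile (an alternative chosen after seeing the data), 2 with array weights, 3 with the methods' procedure, and 0 to 2 with each mouse left out. The share of all genes called was 0.0822%, 0.0523%, 0.0672% and 1.78% in the first 4 of these, against 0.00747% in the main fit. With each mouse left out that share ran from 0.00% to 0.0897%. For human diets against pellet the count of 6 became 0 in batch 2 alone and ran from 5 to 8 with each mouse left out. The share of all genes called was 4.98% in the main fit and 0.187% in batch 2 alone. It ran from 3.29% to 6.42% with each mouse left out. For human against chimpanzee diets the share of all genes called was 4.06% after cyclic loess, 4.60% with the 90th percentile as a covariate and 3.16% in the fit of all 24 mice. It was 6.43% with the methods' procedure, 9.50% with array weights, and 0.463% to 4.95% with each mouse left out. A batch alone holds 3 mice per diet. In the other cases the cause was not tested.

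Mice that share a replicate number did not deviate together (mean r = -0.01, from -0.63 to 0.41). With the number as a replicate block the counts were 6 for chimpanzee against pellet, 0 for human against chimpanzee, 0 for fast food against cafeteria and 6 for human against pellet. The shares of all genes called were 9.68%, 0.994%, 0.00% and 4.58%.

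The call of Acot1 on the chimpanzee diet against pellet was kept in 38 of 39 alternatives, that of Acot12 in 37, Acot7 in 37, Acot8 in 35, Acnat2 in 35 and Acot4 in 27. No called difference changed sign. The alternatives in these tallies include the omission of each of the 24 mice. Of these mice, 12 were on cafeteria or fast food and so in neither diet compared. No call was lost without any of them, so their omission tests these calls little. Acot4 lost its call only in omissions of chimpanzee or pellet mice, with a lowest value of 0.64 without chimpanzee replicate 3 of batch 2. The other called genes lost no call to the omission of a mouse. The number of mice and the low signal of the dimmer probe sets limit the precision.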
